A study of Oryza sativa with 8 samples.

Results

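The loci described here are the 201 rice loci whose transcript signal was over 8-fold lower after 8 h in salt than before it, in both of the lines studied. A locus was taken when its spots were well above background on all 4 arrays of 0 h, when its highest 8 h array lay below its lowest 0 h array in each line, and when the mean log2 signal at 8 h was lower by 3 or more in Nipponbare and in Pokkali. One further locus was left out beforehand. Of 52795 loci on the array, 40242 were above background on all 4 arrays of 0 h, and the 201 loci are 0.499% of these. The loci were thus chosen by the measured change from 0 h to 8 h in each line, and these changes are given below as a description, without a test.

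RNA came from whole seedlings, aged 14 days, of 2 lines of Oryza sativa: Nipponbare, a japonica line, and Pokkali, an indica line. Each line was sampled at 0 h and at 8 h of a 250 mM NaCl treatment, which gave 4 groups with 2 biological replicates each, on 8 one-colour arrays. All plants were raised in a greenhouse under natural light. No group kept for 8 h without salt is among these samples, so salt and time of day cannot be told apart in any 8 h value.

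Salt in the root medium lowers the water potential around the root and later loads the tissue with sodium. Plants respond with slower growth, closed stomata and less carbon fixation, and many transcripts of growth, photosynthesis and nutrient uptake are known to decline in this state while transcripts of protective proteins accumulate. Photosynthesis and nutrient uptake genes also follow the day. In RNA of whole seedlings, fewer cells of a type and less RNA per cell cannot be told apart.

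The array files name each probe only by a transcript model of a locus such as LOC_Os09g24370, whose first digits give the chromosome, and the reference gene table pairs none of these identifiers with a gene name. Most loci are therefore given by identifier alone. The only roles mentioned are those of 7 short lists of loci drawn up from general knowledge of rice identifiers, with earlier results of these data known, and they rest on no annotation used here. Of 17 light harvesting and Rubisco small subunit loci on the array, which mark leaf, 17 were above background on all 4 arrays of 0 h. Of 4 loci used as root markers, 2 were. So were 40242 of all 52795 loci on the array, and these counts therefore say little about the tissue.

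Between 81.0% and 85.5% of the 61657 non-control spots on an array were well above background. The signal is given as log2 intensity relative to the 75th percentile of its array, so that 0 is the 75th percentile. Signals of different probes do not rank their transcripts by abundance.

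**Figure D1:**
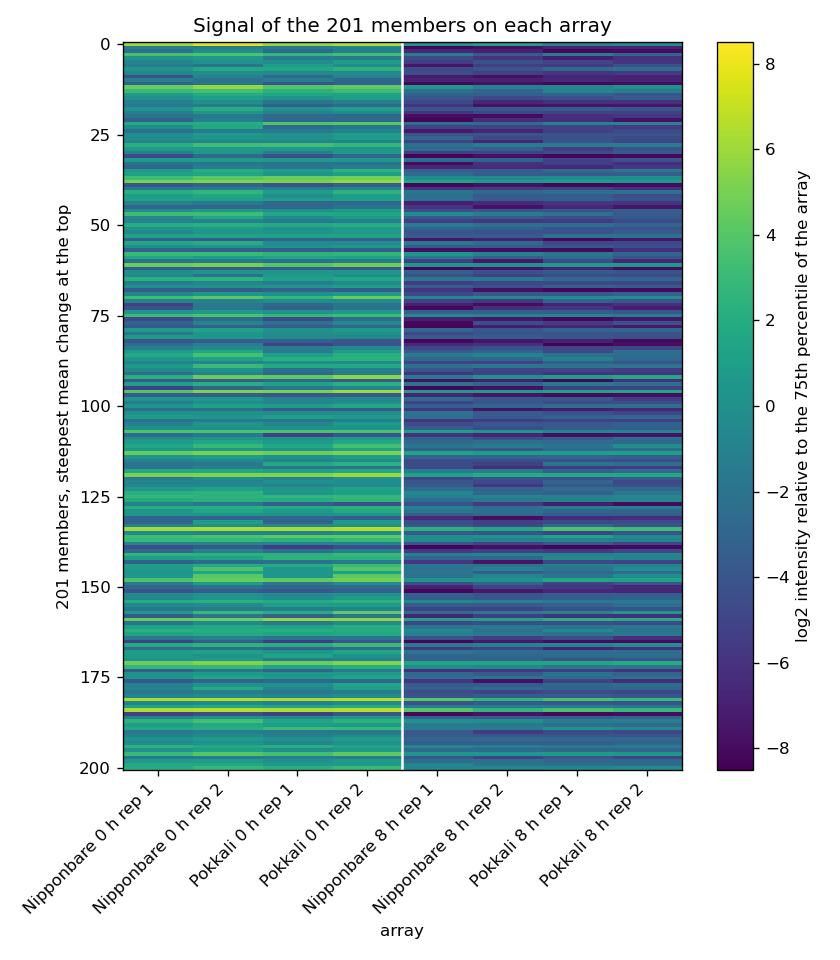
Signal of the 201 loci (rows, ordered by the mean of their 2 changes) on the 8 arrays (columns; white line between 0 h and 8 h). Colour is log2 intensity relative to the 75th percentile of the array. For 198 of the 201 loci all 4 arrays of 8 h are lower than all 4 arrays of 0 h.

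The rule compared arrays within a line only. For 198 of the 201 loci all 4 arrays of 8 h, of both lines, lay below all 4 arrays of 0 h. The rule makes this likely, since it asked for a large change in each line. The 0 h levels of the 201 loci were also alike between the lines, with a Pearson correlation of 0.94. This correlation was not computed over the 40242 loci, so it marks nothing particular to the 201. The median change was -3.85 in Nipponbare, which is 14.4-fold lower, with a range of -6.59 to -3.01. In Pokkali the median was -3.71, or 13.1-fold lower, with a range of -6.71 to -3.003. The median change of all 40242 loci was 0.04 in Nipponbare and 0.05 in Pokkali.

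The rule was met by 375 loci in Nipponbare (0.932%) and by 311 in Pokkali (0.773%). The 201 shared loci are thus 53.6% of the Nipponbare set and 64.6% of the Pokkali set. The 174 loci that met it only in Nipponbare had a median change of -2.48 in Pokkali, and 131 of them were at -2 or less there. The 110 that met it only in Pokkali had a median of -2.52 in Nipponbare, with 88 at -2 or less. The loci outside the shared set were therefore mostly lower in the other line too, by less than 8-fold, and 3 and 2 of them were above 0 in the other line.

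**Figure D2:**
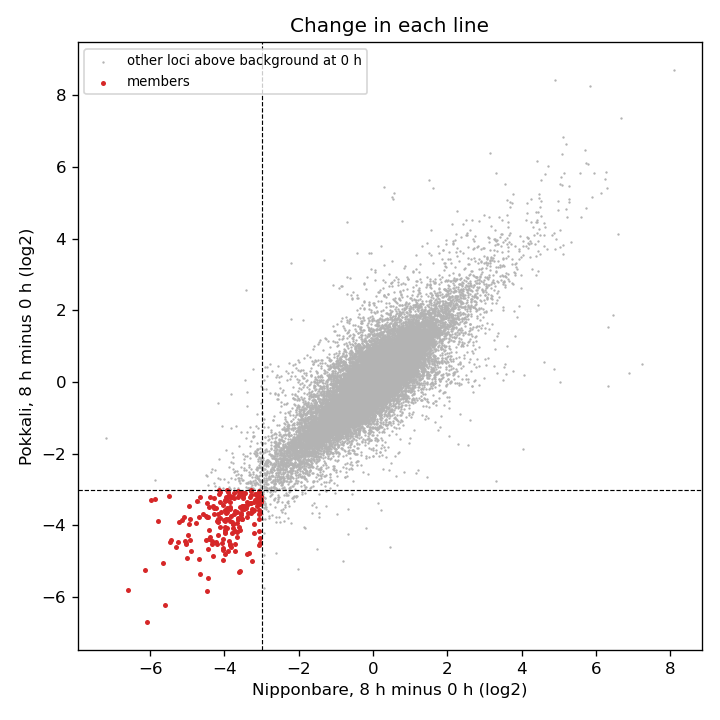
Change from 0 h to 8 h in Nipponbare (x axis, log2) and Pokkali (y axis, log2) for loci above background on all 4 arrays of 0 h. Red points are the 201 loci, dashed lines mark the threshold of -3 in each line, and grey points close to the lines show that the threshold cuts through a continuous cloud.

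No gap in the data marks the threshold. The 3 loci just inside it were LOC_Os10g42660 at -3.28 in Nipponbare and -3.003 in Pokkali, LOC_Os06g32990 at -3.01 and -3.31, and LOC_Os06g44810 at -3.93 and -3.01, which was dark at 8 h in both lines. Just outside were LOC_Os04g42720 at -2.999 and -3.31, LOC_Os09g36880 at -2.996 and -3.31, and LOC_Os09g20540 at -3.34 and -2.99. Within 0.25 log2 units of the threshold lay 63 loci inside it and 96 outside it. With normexp background correction in place of the processed signal, 56 loci met the rule, all of them among the 201.

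LOC_Os09g24370 had the steepest mean change by measured signal, a rank that is not settled against loci dark at 8 h, whose full change is unknown. Its signal was 6.10 and 7.65 on the 0 h arrays of Nipponbare and 0.32 and 1.23 at 8 h, a mean 68.5-fold lower. In Pokkali it was 5.75 and 6.50 at 0 h and -0.88 and -0.29 at 8 h, 104-fold lower. All 4 arrays of 0 h stood far above all 4 of 8 h, and the spot was still well above background at 8 h, so both ends of this change were measured.

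Among the 4 steepest loci LOC_Os08g16260 was the other one that stayed above background throughout. It read 3.53 and 3.79 at 0 h and -1.37 and -3.60 at 8 h in Nipponbare, and 2.84 and 3.40 against -1.34 and -2.94 in Pokkali. The change was 70.8-fold in Nipponbare and 38.1-fold in Pokkali, and the 8 h replicates lay further apart than the 0 h replicates in both lines.

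2 of the steepest loci went out of sight. LOC_Os10g11270 read -1.35 and -1.38 at 0 h in Nipponbare and -1.26 and -0.81 in Pokkali, with close replicates, and was not well above background on any of the 4 arrays of 8 h. Against the lowest signal that counted as above background it was at least 22.2-fold lower in Nipponbare and at least 29.4-fold lower in Pokkali. LOC_Os06g33080 was likewise dark on all 4 arrays of 8 h, at least 25.4-fold lower in Nipponbare and at least 17.1-fold lower in Pokkali. Its 0 h replicates were wide apart, at -2.30 and -0.04 in Nipponbare and -2.49 and -1.15 in Pokkali.

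LOC_Os11g35930 read 0.17 and 0.69 at 0 h and -4.61 and -5.86 at 8 h in Nipponbare, where 1 of the 2 arrays of 8 h was above background. In Pokkali it stood at -1.59 on both 0 h arrays and was dark at 8 h, at least 20.0-fold lower. LOC_Os07g22580 read -0.76 and 0.07 against -5.35 and -4.29 in Nipponbare, 22.3-fold lower. In Pokkali it read -0.13 and 0.93 against -4.97 and -5.91, with 1 of 2 arrays of 8 h above background. At 0 h LOC_Os11g35930 was lower in Pokkali than in Nipponbare (log2 -2.02, SE 0.49, adjusted p = 0.0379 by limma).

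LOC_Os07g07860 was measured on all 8 arrays. It read 0.50 and 1.74 at 0 h and -4.58 and -4.12 at 8 h in Nipponbare, 44.4-fold lower, and 1.54 and 2.52 against -2.68 and -2.21 in Pokkali, 22.2-fold lower. The remaining 5 of the 12 steepest loci were dark on both 8 h arrays of at least 1 line. LOC_Os01g09880 was at least 44.4-fold lower in Pokkali, and LOC_Os03g04530 at least 15.6-fold lower in Nipponbare. LOC_Os04g11120, LOC_Os07g36630 and LOC_Os02g43410 were dark at 8 h in both lines, with bounds of at least 18.7-fold, 10.1-fold and 10.1-fold in Nipponbare. In Pokkali the bounds were 14.4-fold, 4.93-fold and 16.8-fold, so for LOC_Os07g36630 a change of over 8-fold there rests on signal below the background limit.

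**Figure D3:**
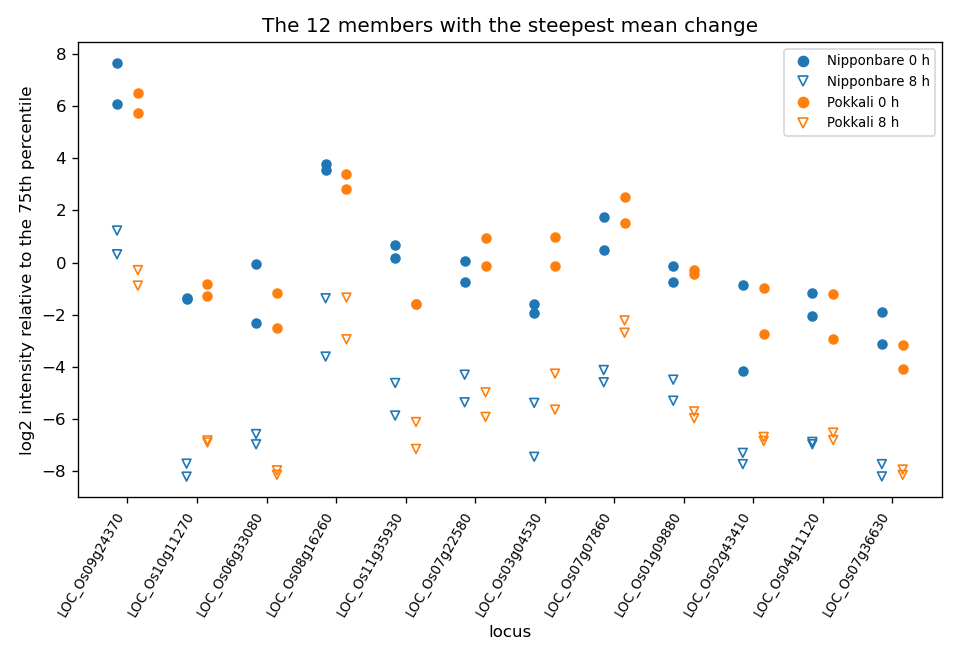
Signal of the 12 loci with the steepest mean change (x axis) as log2 intensity relative to the 75th percentile of the array (y axis). Filled circles are 0 h and open triangles 8 h, blue is Nipponbare and orange Pokkali, with 1 point for each of 2 replicates. Within each line every triangle lies below every circle, as the rule requires, and LOC_Os02g43410 has the widest pair of circles.

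Loss of signal was common among the 201 loci. On all 4 arrays of 8 h 27 of them (13.4%) were dark, against 136 of the 40242 loci (0.338%), a contrast that the rule itself favours. In Nipponbare 36 loci were dark on both 8 h arrays, 19 on 1, and 146 were above background on both. In Pokkali the counts were 36, 11 and 154. For the 36 dark loci of Nipponbare the bound ran from 1.94-fold to 25.4-fold, with a median of 6.39-fold, and for 22 it was under 8-fold. In Pokkali it ran from 2.05-fold to 44.4-fold, also under 8-fold for 22. For those loci a change of over 8-fold rests on signal below the background limit. No locus was saturated on any array, and 143 were measured on all 8, with at least 1 spot above background on each.

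At the other end stood loci with a very bright spot that remained bright. LOC_Os11g02350 read 6.40 and 6.59 at 0 h and 3.99 and 2.70 at 8 h in Nipponbare, and 6.40 and 6.67 against 3.60 and 2.90 in Pokkali. LOC_Os12g02300 gave nearly the same reading on every array, within 0.08 log2 units. The short arms of chromosomes 11 and 12 carry a duplicated segment in rice, and whether these 2 probes read 1 transcript or 2 was not tested.

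LOC_Os02g41904 read 5.16 and 5.25 against 1.33 and 2.05 in Nipponbare, 11.4-fold lower, and 5.30 and 5.92 against 1.75 and 1.82 in Pokkali, 14.1-fold lower. LOC_Os11g05290 was 16.6-fold lower in Nipponbare, from 5.005 and 5.28 to 1.58 and 0.60. In Pokkali it was 25.9-fold lower, from 5.14 and 5.82 to 0.99 and 0.58. Both loci had closer 0 h pairs in Nipponbare than in Pokkali.

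4 of the 201 loci were on the lists of known rice loci, 3 of them on the list of 8 root iron and silicon loci. Of all loci above background on all 4 arrays of 0 h, 0.499% were members. Grasses take up iron by releasing chelators made from nicotianamine into the soil and importing the iron complex at the root surface. The 3 loci were LOC_Os03g19427 and LOC_Os03g19420, neighbours on chromosome 3, and LOC_Os02g43410.

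LOC_Os03g19427 read 2.26 and 4.56 at 0 h and -1.71 and 0.06 at 8 h in Nipponbare, 18.8-fold lower. In Pokkali it read 4.31 and 5.57 against 1.17 and 1.68, 11.4-fold lower. LOC_Os03g19420 read -1.74 and 0.90 against -4.41 and -3.03 in Nipponbare, 9.82-fold lower, and -1.68 and -0.30 against -5.14 and -4.16 in Pokkali, 12.6-fold lower. Replicate 2 was above replicate 1 at both times in both lines for this pair, and the 0 h replicates of Nipponbare were over 2 log2 units apart.

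LOC_Os02g43410 read -4.15 and -0.85 at 0 h in Nipponbare and -2.74 and -0.96 in Pokkali. It was dark on all 4 arrays of 8 h, at least 10.1-fold lower in Nipponbare and at least 16.8-fold lower in Pokkali. Its Nipponbare 0 h pair, with an SD of 2.33, was wider than that of the other 2 loci. Of the 5 tested loci of this list outside the 201, 2 were lower at an adjusted p under 0.05 in each line by limma, against 12.3% of all 45307 tested loci in Nipponbare and 12% in Pokkali. They were LOC_Os02g51110, at -1.32 in Nipponbare and -1.41 in Pokkali, and LOC_Os03g46470, whose 8 h signal lay under the lowest signal counted as above background, so that no size is given.

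The fourth listed locus was LOC_Os04g38600, on the list of Rubisco and the Calvin cycle, which fixes carbon dioxide into sugar. It read 6.14 and 6.42 at 0 h and 2.42 and 1.84 at 8 h in Nipponbare, 17.7-fold lower, and 6.27 and 6.67 against 3.66 and 3.24 in Pokkali, 8.11-fold lower. It was the only member among 11 tested loci of the Rubisco and Calvin cycle list. Of the other 10, 9 were lower in Nipponbare and 8 in Pokkali at an adjusted p under 0.05 by limma.

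None of the 14 light harvesting loci, the 14 photosystem loci or the 9 nitrogen loci was among the 201. Members were 0.499% of the loci above background at 0 h, so lists of this size would mostly hold none. The lowest change in Nipponbare and the lowest in Pokkali, which need not belong to 1 locus, were -2.99 and -2.54 for light harvesting, -4.11 and -2.73 for photosystems, -3.10 and -2.91 for nitrogen and -4.37 and -2.51 for aquaporins. Over all tested loci 12.3% were lower and 14% higher in Nipponbare, and 12% lower and 15.2% higher in Pokkali. Of the 14 light harvesting loci, 13 were lower in Nipponbare and 11 in Pokkali at an adjusted p under 0.05 by limma. Of the 14 photosystem loci 12 were lower in each line, and of the 9 nitrogen loci 4 were lower and 1 higher in each. Of 13 aquaporin loci, which encode water channels, 5 were lower in Nipponbare, and 3 were lower and 2 higher in Pokkali, with no member among the 201. The higher calls of the nitrogen and aquaporin lists were near these background shares.

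Of 8 tested clock loci, 5 were higher in Nipponbare and 4 in Pokkali, at an adjusted p under 0.05 by limma, against 14% and 15.2% of all tested loci. The median change of the clock list was 1.09 in Nipponbare and 0.63 in Pokkali. The clock drives daily rhythms of many transcripts, and the part of the time of day in the changes of the 201 loci was not tested.

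Among the 73 tested loci of the 7 lists outside the 201, 45 were lower and 6 higher in Nipponbare, and 40 were lower and 7 higher in Pokkali, against the same 12.3% and 14% of all tested loci in Nipponbare and 12% and 15.2% in Pokkali. The higher calls were no more frequent than that background. Without Pokkali 8 h replicate 2 the Pokkali calls came to 26 in either direction, in place of 47. Leaving out the same replicate lowered the calls over all loci as well, from 27.2% to 10.5%.

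The lines were compared at each time, a contrast that the rule did not use, although it shares its arrays with the rule. Whether each probe binds the transcripts of both lines equally well was not tested. A lower signal in Pokkali therefore need not mean less transcript there. At 0 h, 18 of the 201 loci (8.96%) differed between Pokkali and Nipponbare at an adjusted p under 0.05 by limma, 7 higher and 11 lower in Pokkali. Over all tested loci 6.73% were higher and 10.1% lower, and over loci above background on all 4 arrays of 0 h 6.29% and 7.7%. In both directions together the shares were 16.8% and 14%. The share among the 201 loci was below both backgrounds, so line differences at 0 h are no result about these loci. The median line difference at 0 h was 0.07 over the 201 loci and 0.08 over all loci.

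At 8 h, 31 of the 201 loci (15.4%) differed, 19 higher and 12 lower in Pokkali, a split that was 16 and 17 with no scaling between arrays. Over all tested loci 10.5% were higher and 11.4% lower, and over loci above background on all 4 arrays of 0 h 10.1% and 9.7%. In both directions, over all tested loci the share was 22%, and over loci above background on all 4 arrays of 0 h it was 19.8%. The share was again under the background. Of the 31 loci, 2 were dark in both lines at 8 h and 4 in 1 line. 11 loci passed at both times, 10 of them in the same direction. The exception was LOC_Os10g05990, lower in Pokkali at 0 h (log2 -0.82, SE 0.20, adjusted p = 0.04 by limma) and higher there by measured signal at 8 h. At 8 h it was dark in Nipponbare and above background on 1 of 2 Pokkali arrays. Against the background limit of the Nipponbare arrays its Pokkali signal was 0.906-fold, so a higher level in Pokkali is not established. Without Pokkali 0 h replicate 1 the count at 0 h was 7, and the share over all tested loci was 13.3% in place of 16.8%. Without any 1 array of 8 h the count at 8 h was 17 to 19. The share over all tested loci was then 11.1% to 12.6%, in place of 22%.

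**Figure D4:**
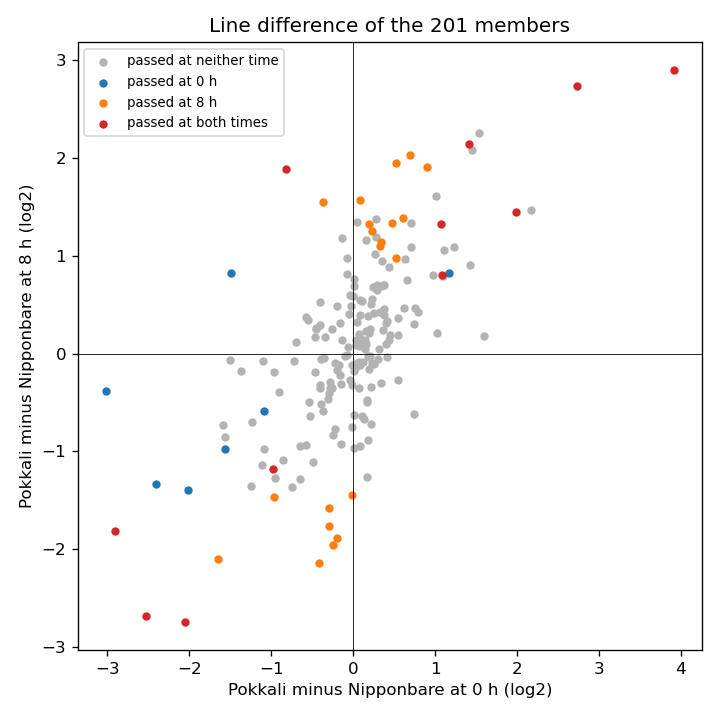
Pokkali minus Nipponbare (log2) at 0 h (x axis) and 8 h (y axis) for the 201 loci, coloured by the times at which the difference passed an adjusted p of 0.05. The 10 loci that passed at both times with 1 sign lie in the upper right and lower left, and LOC_Os04g11970 is the point at the far upper right.

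LOC_Os04g11970 had the largest line difference at 0 h. It read -1.99 and -1.62 in Nipponbare and 1.85 and 2.36 in Pokkali, higher in Pokkali by 3.91 log2 units (SE 0.29, adjusted p = 0.000317 by limma). At 8 h it read -4.71 and -5.30 in Nipponbare and -1.95 and -2.27 in Pokkali, 7.43-fold higher (SE 0.29 log2 units, adjusted p = 0.00103 by limma). With normexp the 8 h difference was 1.48 log2 units in place of 2.89. The 0 h signal of Nipponbare was close to the 8 h signal of Pokkali, while both lines were lower at 8 h, by 9.17-fold and 18.6-fold.

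LOC_Os02g37250 was 3.97-fold higher in Pokkali at 0 h, with 1.93 and 2.02 in Nipponbare and 3.84 and 4.09 in Pokkali (SE 0.21 log2 units, adjusted p = 0.00148 by limma). At 8 h it was 2.73-fold higher (adjusted p = 0.00502 by limma). LOC_Os04g34270 was 2.66-fold higher in Pokkali at 0 h (SE 0.22 log2 units, adjusted p = 0.00649 by limma) and 4.41-fold higher at 8 h (adjusted p = 0.00107 by limma). LOC_Os11g16550 was 2.12-fold higher at 0 h, at 4.58 and 4.64 against 5.72 and 5.67 (SE 0.16 log2 units, adjusted p = 0.00572 by limma). Replicates of these 3 loci were close at 0 h, and the lines did not overlap.

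LOC_Os10g18820 differed the other way. It read 1.60 and 2.02 in Nipponbare and -0.20 and -0.28 in Pokkali at 0 h, a log2 difference of -2.05 (SE 0.32, adjusted p = 0.00673 by limma). At 8 h it read -1.58 and -2.48 against -4.89 and -4.65, a difference of -2.74 (SE 0.32, adjusted p = 0.0019 by limma), which was -1.44 with normexp. Its neighbour LOC_Os10g18760 was also lower in Pokkali at 0 h, with -2.33 and -1.21 against -5.19 and -4.16 (log2 -2.91, SE 0.49, adjusted p = 0.0096 by limma). It was dark on all 4 arrays of 8 h.

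LOC_Os10g05980 passed at 8 h and not at 0 h. It read 1.21 and 1.44 in Nipponbare and 1.37 and 1.43 in Pokkali at 0 h, a difference of 0.08 (SE 0.15, adjusted p = 0.794 by limma). At 8 h it read -3.55 and -3.70 in Nipponbare and -2.08 and -2.04 in Pokkali, 2.96-fold higher in Pokkali (log2 1.57, SE 0.15, adjusted p = 0.000938 by limma), a log2 difference that was 0.998 with normexp. The change at 8 h was -4.95 in Nipponbare and -3.46 in Pokkali, 2 values that the rule used and whose difference is given without a test.

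The changes of the lines are compared as a description, since the rule used both and cut their range. By measured signal, which for loci dark at 8 h gives no true size, 106 loci had the larger change in Nipponbare and 95 in Pokkali. The changes were 1 log2 unit or more apart for 19 loci with the larger one in Nipponbare and 12 with the larger one in Pokkali.

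The 4 loci furthest apart by measured signal all had the larger change in Nipponbare. LOC_Os10g05990 was at -5.99 in Nipponbare and -3.29 in Pokkali, but it was dark on both 8 h arrays of Nipponbare, where it was at least 15.6-fold lower. LOC_Os03g14910 was at -5.48 and -3.17, also dark in Nipponbare at 8 h, at least 24.2-fold lower. For both loci the true size of the Nipponbare change is therefore unknown.

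LOC_Os09g39090 was above background on all 8 arrays. It read -0.05 and 1.67 at 0 h and -5.04 and -5.11 at 8 h in Nipponbare, 59.0-fold lower. In Pokkali it read -2.60 and -1.82 against -5.23 and -5.68, 9.51-fold lower. At 0 h Pokkali was lower by a log2 difference of -3.02 (SE 0.56, adjusted p = 0.0139 by limma), and at 8 h the difference was -0.38 (adjusted p = 0.673 by limma).

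LOC_Os03g22010 passed at 8 h and not at 0 h. It read 3.03 and 3.38 at 0 h in Nipponbare and 2.52 and 3.14 in Pokkali, a difference of -0.37 (adjusted p = 0.557 by limma). At 8 h it read -2.25 and -2.92 against -0.71 and -1.37, 2.93-fold higher in Pokkali (SE 0.36 log2 units, adjusted p = 0.0261 by limma). The changes were 55.3-fold in Nipponbare and 14.6-fold in Pokkali.

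The 0 h replicates of the 201 loci did not scatter evenly. In Nipponbare 171 of the 201 (85.1%) were higher on replicate 2 than on replicate 1, against 45.2% of the 40242 loci. In Pokkali 163 (81.1%) were, against 52.4%. The median of replicate 2 less replicate 1 was 0.52 in Nipponbare and 0.61 in Pokkali, against -0.04 and 0.02 over the 40242 loci. 149 of the loci were higher on replicate 2 in both lines, a count not made over the 40242 loci. Over all tested loci the 0 h replicate difference correlated at 0.54 between the lines. Agreement of the lines is thus not particular to the 201 loci. At 8 h 90 of the 201 loci in Nipponbare and 102 in Pokkali were higher on replicate 2, with medians of -0.09 and 0.01. These are 1 array against 1 in each case and carry no test. The rule used these same arrays, and a high signal on either 0 h array helped a locus to meet it. The contrast with the 40242 loci is therefore a description only.

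**Figure D5:**
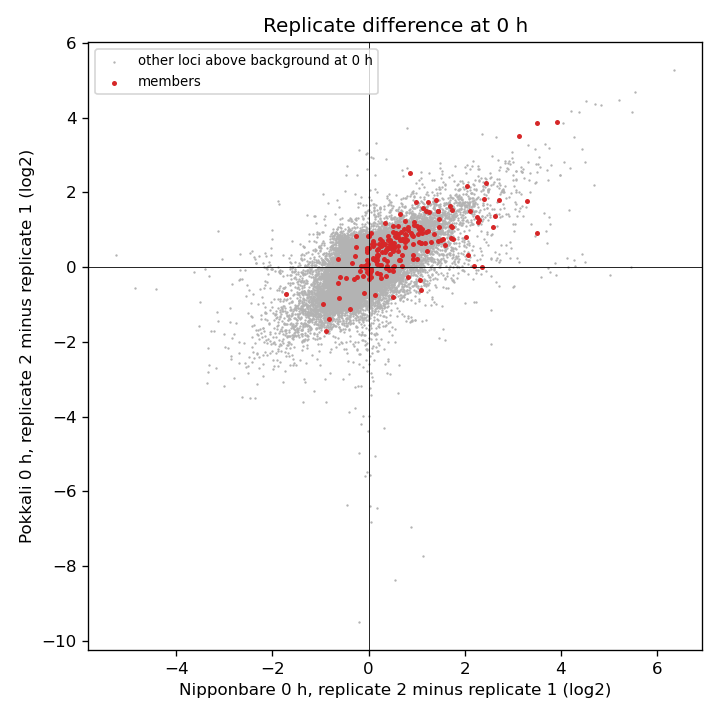
Replicate 2 minus replicate 1 at 0 h (log2) in Nipponbare (x axis) and Pokkali (y axis). Red points are the 201 loci, of which 149 lie in the upper right, and grey points are the other loci above background on all 4 arrays of 0 h.

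The 3 loci with the widest gap in both lines, picked after their values were seen, differed by over 3 log2 units between replicates. LOC_Os01g66860 read -2.93 and 0.98 at 0 h in Nipponbare and -3.18 and 0.71 in Pokkali, against -4.45 and -5.20 and -4.69 and -4.46 at 8 h. LOC_Os07g08160 read 0.55 and 4.05 in Nipponbare and 0.35 and 4.20 in Pokkali, against -2.19 and -0.70 and -1.92 and -0.00 at 8 h. LOC_Os01g14410 followed it within 0.37 log2 units on every array and was printed 16 times, with an SD between spots of at most 0.10. The lines were close to each other for all 3 loci, with replicates further apart than lines at 0 h, and the mean change of -3.85 in Nipponbare for LOC_Os01g66860 rests largely on replicate 2.

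Without Nipponbare 0 h replicate 2 the rule gave 168 loci, 158 of them among the 201, and without Pokkali 0 h replicate 2 it gave 158, with 152 among the 201. Without replicate 1 it gave 232 and 260. The set was thus smaller when a replicate 2 of 0 h was missing and larger when a replicate 1 was.

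The loci were found on all 12 chromosomes. Chromosome 1 held 26 of them and chromosome 8 held 7, against 5041 and 2906 loci above background. Per 100 such loci the number of members ran from 0.241 on chromosome 8 to 0.672 on chromosome 10.

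Identifiers are numbered along each chromosome, and 37 of the 201 loci (18.4%) lay within 100 numbers of another member, in 17 runs. 15 runs were pairs, 1 held 3 loci and 1 held 4. Of the 40242 loci above background at 0 h, 2654 that were not members lay as close to a member. Their median mean change was -0.01, against 0.04 over all 40242. Whether members lay closer together than other loci was not tested.

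The run of 4, on chromosome 3, joined the listed loci LOC_Os03g19420 and LOC_Os03g19427 with LOC_Os03g19330 and LOC_Os03g19370. LOC_Os03g19370 read -1.51 and -0.06 at 0 h and -5.03 and -4.23 at 8 h in Nipponbare, and -1.03 and 0.05 against -4.31 and -3.65 in Pokkali. LOC_Os03g19330 was dark on all 4 arrays of 8 h, at least 3.94-fold lower in Nipponbare and at least 4.92-fold lower in Pokkali. The 7 other measured loci among them had a median mean change of -0.33, so the run was not unbroken.

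The run of 3 lay on chromosome 10. LOC_Os10g05950 read 4.52 and 5.73 against 0.55 and -0.81 in Nipponbare, 38.1-fold lower, and 3.94 and 4.38 against -0.70 and 0.07 in Pokkali, 22.2-fold lower. With LOC_Os10g05980 and LOC_Os10g05990, described above, all 3 had the larger change in Nipponbare.

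7 further pairs are given with their changes, 4 of them with at most 1 other measured locus in between. LOC_Os02g57110 and LOC_Os02g57120 were at -3.63 and -3.04 in Nipponbare and -3.83 and -4.48 in Pokkali, and the second was lower in Pokkali at 8 h (log2 -1.45, SE 0.20, adjusted p = 0.00435 by limma). LOC_Os02g37250 and LOC_Os02g37260 were at -4.31 and -3.65 in Nipponbare and -4.85 and -4.17 in Pokkali. LOC_Os05g19570 was at -4.70 in Nipponbare and -4.93 in Pokkali, and its neighbour LOC_Os05g19600, dark on all 4 arrays of 8 h, was at least 11.8-fold lower in Nipponbare and at least 9.06-fold lower in Pokkali.

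LOC_Os03g14915, the neighbour of LOC_Os03g14910, was at -4.65 in Nipponbare and -3.20 in Pokkali. LOC_Os12g05840 and LOC_Os12g05880 kept within 0.27 log2 units of each other on all 8 arrays, with 2 measured loci between them at a median mean change of -2.42, and had changes of -3.66 and -3.48 in Nipponbare and -3.62 and -3.53 in Pokkali. LOC_Os12g02370, the neighbour of LOC_Os12g02300, was at -4.32 and -3.46, and LOC_Os11g02450, the neighbour of LOC_Os11g02350, at -3.62 and -3.15. Whether probes of similar neighbours bind each other's transcripts was not tested.

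The other 8 neighbouring pairs lay with 2 to 9 other measured loci between them. They were LOC_Os03g08790 and LOC_Os03g08880, LOC_Os04g33680 and LOC_Os04g33740, LOC_Os06g03059 and LOC_Os06g03099, LOC_Os06g09270 and LOC_Os06g09340, LOC_Os06g32990 and LOC_Os06g33080, LOC_Os07g07860 and LOC_Os07g07920, LOC_Os10g18760 and LOC_Os10g18820, and LOC_Os10g35490 and LOC_Os10g35580. Among these 16 loci LOC_Os04g33740 was higher in Pokkali at 8 h by measured signal (log2 1.95, SE 0.31, adjusted p = 0.00732 by limma), at -3.18 and -4.13 against -5.42 and -5.79, with 1 of the 2 Nipponbare arrays above background. LOC_Os07g07860, above background on all 8 arrays, was also higher in Pokkali at 8 h (log2 1.90, SE 0.50, adjusted p = 0.0397 by limma). LOC_Os10g18820, described above, was lower in Pokkali. LOC_Os10g18760 also passed at 8 h (adjusted p = 0.0431 by limma), but was dark in both lines.

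12 pairs of members, near or far, stayed within 0.5 log2 units of each other on every array. A pair picked after its values were seen was LOC_Os11g03440 on chromosome 11 and LOC_Os12g03150 on chromosome 12. Both members were lower in Pokkali at 8 h, by log2 differences of -1.88 (SE 0.52, adjusted p = 0.0459 by limma) and -1.95 (SE 0.35, adjusted p = 0.0111 by limma). Whether their probes read the same transcript was not tested, so these need not be separate results.

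Most loci rest on a single spot. Of the 201, 190 had 1 spot, 8 had 2 probes of different transcript models, and 3 had 15 or 16 spots of 1 probe. For 7 of the 8 loci with 2 probes both probes were at -3 or less in both lines. The exception was LOC_Os04g53950, whose model 2 was at -4.004 in Nipponbare and -2.84 in Pokkali while its model 1 was at -4.59 and -3.60. Of 3 further loci picked after their values were seen, the probes of LOC_Os04g40940 were at -3.12 and -3.12 in Nipponbare and -3.42 and -3.28 in Pokkali. The probes of LOC_Os11g01620 differed by more, at -4.19 and -3.29 in Nipponbare and -4.37 and -3.01 in Pokkali. LOC_Os01g68050, printed 15 times with an SD between spots of at most 0.11, was at -3.56 in Nipponbare and -3.66 in Pokkali.

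A set defined the same way in the other direction, above background on all 4 arrays of 8 h and higher by 3 or more in both lines, held 256 loci.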

How the data were processed

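Per the file headers, the authors made the deposited scanner tables with Feature Extraction 10.7.1.1 from a design on IRGSP build 5, and the processed signal intensity is background-subtracted and detrended, with no log and no scaling. The deposited flags, such as well above background, are of the kind other, 0 or 1 per spot. The deposited series values equal this intensity (100%). Here log2 intensity of 61657 non-control spots was shifted to each array's 75th percentile and averaged per locus.

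The members were found by the rule with all spots kept. For the fit, outlier spots were left out, which touched only LOC_Os01g14410 and LOC_Os04g43580 and left no member without a value. limma 3.58.1 in R 4.3.3 (lmFit, eBayes, 4 groups, 4 residual degrees of freedom) tested the 45307 loci whose spots were all above background in 1 group or more. Tests are two-sided, with Benjamini-Hochberg adjustment over all loci and a threshold of 0.05. The fit was tested on simulated data.

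Where a locus was dark at 8 h, the bound uses, per array, the higher of its own signal and the lowest signal above background. All arrays lay on 1 slide and were read in 1 scan, per the file headers, with each group in its own positions, so position and group cannot be told apart. The number of arrays limits precision. One 8 h Nipponbare replicate carries 2 numbers in its labels and the title was used. Members and lists were chosen with earlier results of these data known. Loci named were the 12 steepest, the 6 brightest at 0 h, the loci next to the threshold, the 4 with changes furthest apart, the 5 smallest adjusted p for each line difference, listed loci and neighbouring members. Further loci were picked after their values were seen, where the text says so. For another background correction the median spot signal took the place of the mean. No sequences were used here.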

Additional observations from a re-analysis of the deposited data

How the results depend on the processing

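The count of 201 loci was 56 with normexp background correction with an offset of 50, 870 with a mean change of -2 or less and 37 with -4 or less. It was 222 with quantile normalization and 265 with no scaling between arrays. Leaving out 1 array at a time gave 158 to 260. At 0 h the 18 line differences became 27 with normexp and 11 with the 4 arrays of 0 h alone. Without 1 array they were 7 to 17. Over all tested loci the share called, 16.8% before, was 16.2%, 9.15% and 11.7% to 14.2% in these settings. Over loci with every spot above background on all 8 arrays the count at 0 h was 11. Only 141 of the 201 loci were tested there, and 14.3% of all such loci were called. At 8 h the 31 became 20 with normexp, 33 with no scaling and 41 with the 4 arrays of 8 h alone. Without 1 array they were 17 to 29. Over all tested loci the 8 h share, 22% before, was 21.0%, 19.7%, 25.9% and 11.1% to 22.0%. The calls of the 73 listed loci ran from 35 to 51 in Nipponbare and 26 to 45 in Pokkali without 1 array. Over all tested loci the calls ran from 8.90% to 27.0% in Nipponbare and 10.5% to 26.5% in Pokkali. With the replicate block the line differences were 19 at 0 h and 41 at 8 h, against 18.7% and 24.9% of all tested loci. The deviations of same-numbered replicates correlated at 0.54 between the lines at 0 h and 0.22 at 8 h, and the labels do not say what a shared number marks. Of the 10 named line differences, 9 kept their call under all 16 alternatives, and LOC_Os10g05990 at 8 h, which could be tested in fewer, lost it with normexp (adjusted p = 0.112 by limma). With no scaling the median line difference of all loci at 0 h moved from 0.08 to -0.14. The cause was not tested.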
